A study of Mus musculus with 4 samples.

Results

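The genes described here encode the mitochondrial respiratory chain, its ATP synthase and some of the proteins that assemble them. They were chosen by name among the rows of the deposited count table, as protein-coding genes whose symbol begins with Nduf followed by a, b, c, s or v, with Uqcr, with Cox and a digit from 4 to 8, with Atp5 or with mt-, or is Sdha, Sdhb, Sdhc, Sdhd, Cyc1 or Cycs. The rule found 104 of the 16449 genes in the table. Of these, 91 are encoded in the nucleus and 13 in the mitochondrial genome, so all 13 mRNA genes of mouse mitochondrial DNA are listed. The annotation used here, GENCODE M21, holds 109 protein-coding genes of this kind, and the other 5 were not analysed here. None of the 69 that had enough counts for a test passed it between the genotypes in the edgeR fit, where 2.06% of all tested genes did.

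RNA came from mouse dorsal and medial palliums at E11.5, the parts of the forebrain wall that give rise to the neocortex and hippocampus. Poly(A)-enriched RNA was read as long Nanopore reads. Of the 4 libraries, 2 were labelled WT and 2 Tut1 knockout (KO). The enzyme encoded by Tut1 puts an oligo(U) tail on U6 snRNA, which is part of the spliceosome. The study lists the embryos of all 4 libraries as homozygous for a Tut1 allele whose exon 2 lies between loxP sites (Tut1 f/f). The Tut1-KO-labelled libraries also carried Emx1-Cre, which recombines that allele in neural stem and progenitor cells of this tissue and so in the cells they give rise to, and WT means that Cre was absent. The share of recombined cells in the dissected tissue was not measured here. How many embryos went into a library is not stated, so p-values measure the spread between these libraries, which may be technical.

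Depth was low. The totals were 361003 and 392579 counts in WT against 397150 and 305642 in KO-labelled libraries, and a tested gene had a median of 19 to 25 counts in a library. Tut1 itself had 6 and 11 counts in WT against 29 and 25 in KO-labelled libraries, which gave 1.71 ± 0.40 (SE) on the log2 scale (adjusted p = 0.0113, quasi-likelihood test of edgeR). Whole-gene counts do not show whether exon 2 is present, and this gene therefore did not check the labels by a loss of counts. The Y-linked gene Eif2s3y had 0 counts in WT replicate 1 and 36, 42 and 27 in the other libraries, so the sexes were not balanced.

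Emx1 and Lhx2, which mark pallial progenitors, were both detected. Lhx2 fell from 348 and 272 counts to 106 and 106 (log2 fold change −1.49, adjusted p = 6.48e-07), and it was the only one of the 7 tested progenitor markers of 10 in the table to pass. Emx1 had 6, 7, 1 and 2 counts. Of 5 microglia markers, the 3 tested ones (Csf1r, Cx3cr1 and Aif1) rose, and the list summed to 93.9 and 92.2 CPM (counts scaled to the size of each library) in WT against 345 and 292 CPM, while C1qa and C1qb had at most 2 counts in a library. Of the 5 tested of 7 markers of new neurons 1 rose (Dcx), and of the 3 tested of 5 mesenchyme markers 1 rose (Col1a2). Of the 6 tested of 8 red cell markers 1 fell (Hbb-bh1), though 4 of the 6 values were above 0 (48.4% of all tested genes). Among all tested genes 1.4% rose and 0.663% fell at the adjusted threshold. The part of these cell types in the levels given here was not tested, and fewer cells of a type and less RNA per cell cannot be told apart in bulk tissue.

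The respiratory chain lies in the inner mitochondrial membrane. Complexes I (NADH dehydrogenase) and II (succinate dehydrogenase) pass electrons to a quinone, complex III passes them on to cytochrome c, and complex IV (cytochrome c oxidase) hands them to oxygen. Complexes I, III and IV pump protons, and complex V, the ATP synthase, uses the gradient to make ATP. Complex II is made of nuclear-encoded subunits alone, whereas the other complexes also contain subunits that mitochondrial ribosomes translate from mitochondrial mRNAs. Neural stem cells of the early cortex are known to rely strongly on glycolysis, and oxidative metabolism gains weight as they become neurons.

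Several of these genes have near-identical copies elsewhere in the genome, and 3 pairs are shown because the copies bear on which counts belong to a gene. All are read 5′ to 3′ from the GENCODE M21 transcripts (build GRCm38), 60 bases each, and capitals mark bases that differ within a pair. Gene mt-Atp6, a subunit of the membrane part of ATP synthase, lies on the mitochondrial genome (chrM:7927-8607, plus strand). Its copy Gm10925 is an unprocessed pseudogene on chromosome 1 (chr1:24613974-24614651, minus strand), and the first 60 bases of both transcripts are identical.
mt-Atp6: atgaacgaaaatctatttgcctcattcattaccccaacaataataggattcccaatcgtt
Gm10925: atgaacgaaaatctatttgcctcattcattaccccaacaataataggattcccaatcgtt

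The catalytic subunit of complex IV is encoded by mt-Co1 (chrM:5328-6872, plus strand), and its copy Gm29216 covers only the 3′ part (chr1:24615706-24616197, minus strand). The alignment takes in 483 of the 492 bases of the copy, with 1 mismatch. Shown side by side without gaps are bases 1054 to 1113 of the mt-Co1 transcript and bases 1 to 60 of the copy, which differ at 6 bases, most of them before the aligned stretch.
mt-Co1: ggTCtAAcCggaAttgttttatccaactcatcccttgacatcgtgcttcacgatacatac
Gm29216: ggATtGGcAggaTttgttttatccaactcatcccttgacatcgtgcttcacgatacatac

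Atp5l (chr9:44912557-44920742, minus strand) encodes subunit g of the membrane part of ATP synthase, and Gm10221 is its processed pseudogene (chr5:24581554-24581862, minus strand). Bases 82 to 141 of the Atp5l transcript, which begin at a start codon, equal the first 60 of the copy.
Atp5l: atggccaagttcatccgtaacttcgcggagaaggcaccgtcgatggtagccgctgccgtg
Gm10221: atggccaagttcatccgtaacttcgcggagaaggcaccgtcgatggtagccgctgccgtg

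In these pairs most counts lay in the row of the copy. Gm10925 had 1263 and 1656 counts in WT against 1350 and 1026 in KO-labelled libraries, where mt-Atp6 had 20, 32, 26 and 40. Gm29216 had 294, 386, 366 and 406 counts, against 20, 36, 30 and 25 for mt-Co1. Gm10221 had 66, 71, 69 and 76 counts, against 4, 2, 3 and 1 for Atp5l. A read of the shared stretch cannot be assigned by sequence where the bases are identical, and how the authors assigned such reads is not stated, so the level of these genes on their own is uncertain.

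The same held for more of the genes. A row of the table whose transcript matched that of a respiratory chain gene at 90% identity or more over at least 80% of its own length was found for 26 of the 104 genes, in 40 pairs. Besides the 2 above, 4 mitochondrially encoded genes had a copy on chromosome 1. Gm10222, identical to mt-Nd4l over 294 bases, had 144, 188, 130 and 115 counts where mt-Nd4l had 10, 9, 6 and 4. Gm28661, identical to mt-Co2 over 681 bases, had 90, 110, 103 and 82 counts where mt-Co2 had 27, 32, 29 and 19. For mt-Co3 and mt-Nd3 the gene and its copy were of like size, with 37, 56, 59 and 55 counts for mt-Co3 and 34, 39, 43 and 38 for Gm28437. The 6 copies held 65.6% to 68.6% of the counts of the mitochondrially encoded genes and the copies together, depending on the library.

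Among nuclear genes the copy with most counts was that of Atp5g2, one of 3 genes for subunit c, the ring that turns in ATP synthase. Atp5g2 had 96 and 92 counts in WT against 113 and 72 in KO-labelled libraries, while its pseudogene Gm10175, identical over 645 bases, had 680, 747, 729 and 640. The copies of Ndufb4 and Cox7c also held more counts than the gene in every library, with 21, 17, 23 and 19 for Ndufb4c against 4, 1, 7 and 4 for Ndufb4. For Atp5g1 the order was the reverse, with 561, 583, 719 and 610 counts in the gene and 65, 63, 78 and 60 in Gm10039.

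**Figure D1:**
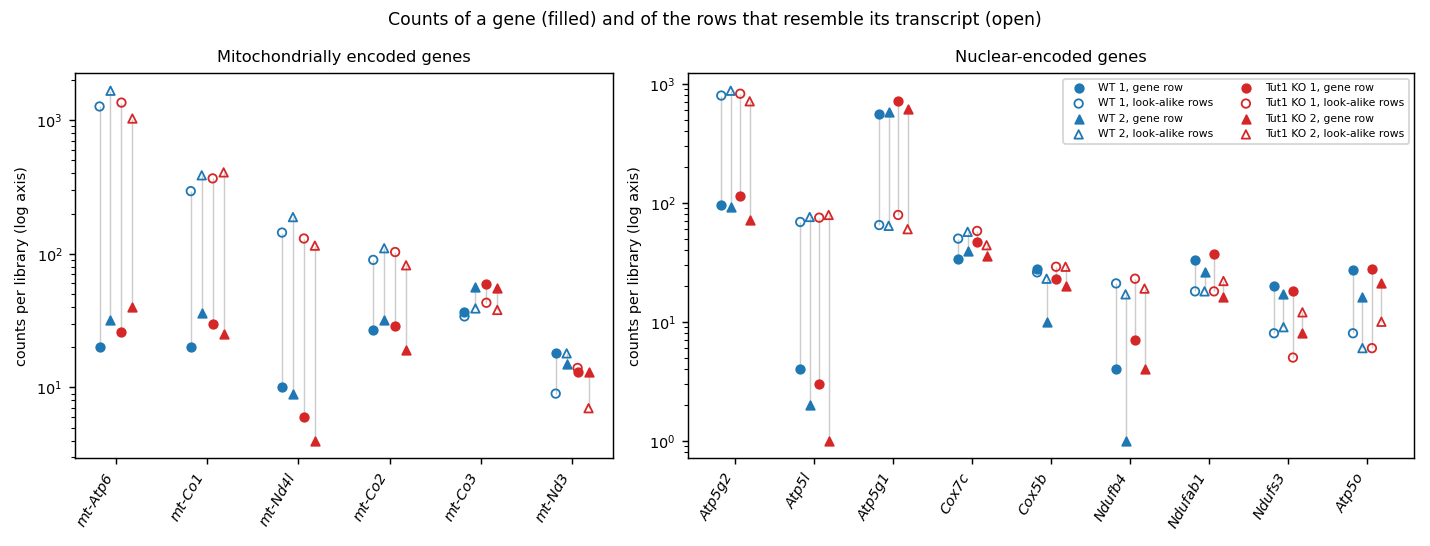
Counts per library (log axis) of each gene that has look-alike rows with at least 30 counts in all, with the gene's own row filled and the sum of its look-alike rows open; blue marks WT, red marks Tut1 knockout, circles replicate 1 and triangles replicate 2. For mt-Atp6, mt-Co1, mt-Nd4l and mt-Co2 on the left, and for Atp5g2, Atp5l and Ndufb4 on the right, the open points lie above the filled ones in all 4 libraries, while for Atp5g1 they lie below.

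The counts of the nuclear genes were concentrated in few rows. Atp5j2, Ndufa13, Atp5f1, Ndufa5, Atp5g1 and Ndufv2 together held 73.6% and 73.3% of the nuclear-encoded counts in WT against 73.1% and 72.4% in KO-labelled libraries. The least counted of these 6 had 1938 counts over the 4 libraries, the next gene, Sdhc, had 686, and the median nuclear gene had 56. Fewer than 10 counts in all were found for 8 nuclear genes. In CPM averaged over the genotypes and not divided by transcript length, the order began with Atp5j2 at 3399, Ndufa13 at 3262 and Atp5f1 at 3251. Ndufa5 followed at 3156, Atp5g1 at 1839 and Ndufv2 at 1430. Atp5h, a subunit of the peripheral stalk, had 375 CPM. Ndufs3, a core subunit of the same complex as Ndufv2, stood at 45.9 CPM.

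Among the mitochondrially encoded genes in their own rows, mt-Cytb had the highest level at 736 CPM, followed by mt-Nd6 at 719. The others lay between 10.2 (mt-Atp8) and 278 CPM (mt-Nd5), with mt-Co1 at 81.9. Gm10925, the copy of mt-Atp6, had 3826 and 4625 CPM in WT against 3588 and 3564 in KO-labelled libraries. The order of these genes therefore depends on which row holds the reads. Mouse mt-Nd6 is the one mRNA gene on the opposite strand of mitochondrial DNA and its mRNA is known to lack a long poly(A) tail. It overlaps mt-Nd5 by 14 bases, and whether counting used strand is not stated, so transcripts of the other strand of mt-Nd6 cannot be told apart from it.

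**Figure D2:**
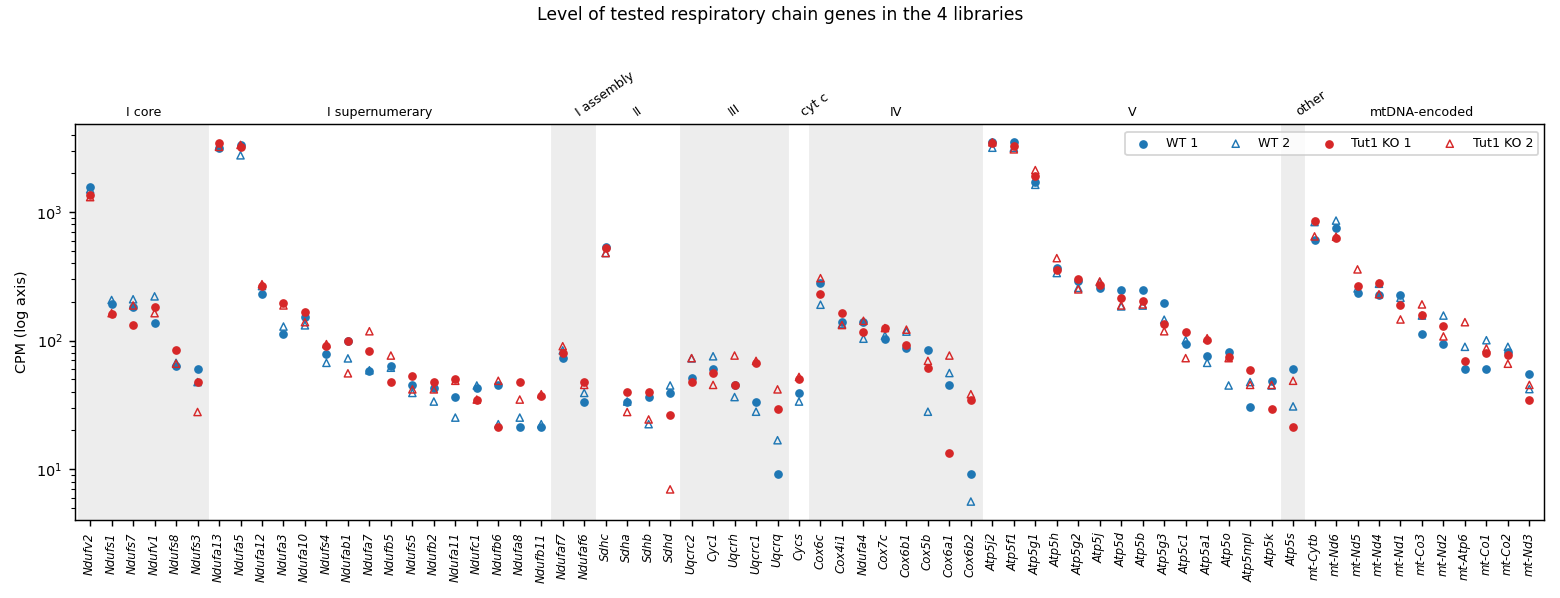
Level of tested genes in CPM (log axis) in each library, ordered by complex and by mean level within it; blue marks WT, red Tut1 knockout, filled circles replicate 1 and open triangles replicate 2. Ndufa13, Ndufa5, Atp5j2 and Atp5f1 lie at the top in all 4 libraries, and blue and red points overlap for most genes.

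The comparison asked whether transcripts of the respiratory chain differ in abundance in Tut1-KO-labelled libraries. No respiratory chain gene passed the test. Of the 104 genes, 69 had enough counts to be tested, 58 nuclear and 11 mitochondrially encoded, and 0 had an adjusted p below 0.05 in the edgeR quasi-likelihood test, where 121 of all 5878 tested genes did (2.06%; 1.4% higher and 0.663% lower). DESeq2, whose own filter left 27 of them without an adjusted p, and limma-voom also called 0, with 1 and 6 at an unadjusted p below 0.05. In edgeR 9 of the 69 had an unadjusted p below 0.05, 7 higher and 2 lower, against 14.2% of all tested genes (7.88% higher and 6.31% lower). In both KO-labelled libraries the level exceeded both WT values for 18 of the 69 genes (22.1% of all tested genes) and was lower than both for 9 (20.8%).

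Differences were small where counts were high. The median log2 fold change (knockout minus WT) was 0.11 over the 58 nuclear genes and 0.03 over the 11 mitochondrially encoded ones, against −0.01 over all tested genes. The value was above 0 for 37 of 58 nuclear and 6 of 11 mitochondrially encoded genes, against 48.4% of all tested genes. For 34 nuclear and 9 mitochondrially encoded genes the 95% interval of the difference, not adjusted for the number of genes, stayed within a 2-fold change in either direction. A change beyond 2-fold was not excluded by the interval for the other 26, which were mostly low in counts. The filter on low counts needs enough counts in 2 libraries, and 5 of the 69 genes met it in 1 group only: Cox6b2, Uqcrq, Ndufa8 and Ndufb11 in the KO-labelled libraries and Sdhd in WT. For these genes a difference is built into the selection, and the counts and medians over tested genes are descriptions. Among all 5878 tested genes, 4.17% entered through the KO-labelled libraries only and 2.02% through WT only. With no filter, the median was 0.06 over all 91 nuclear genes and 0.03 over all 13 mitochondrially encoded ones, against 0.05 over all genes with a count.

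**Figure D3:**
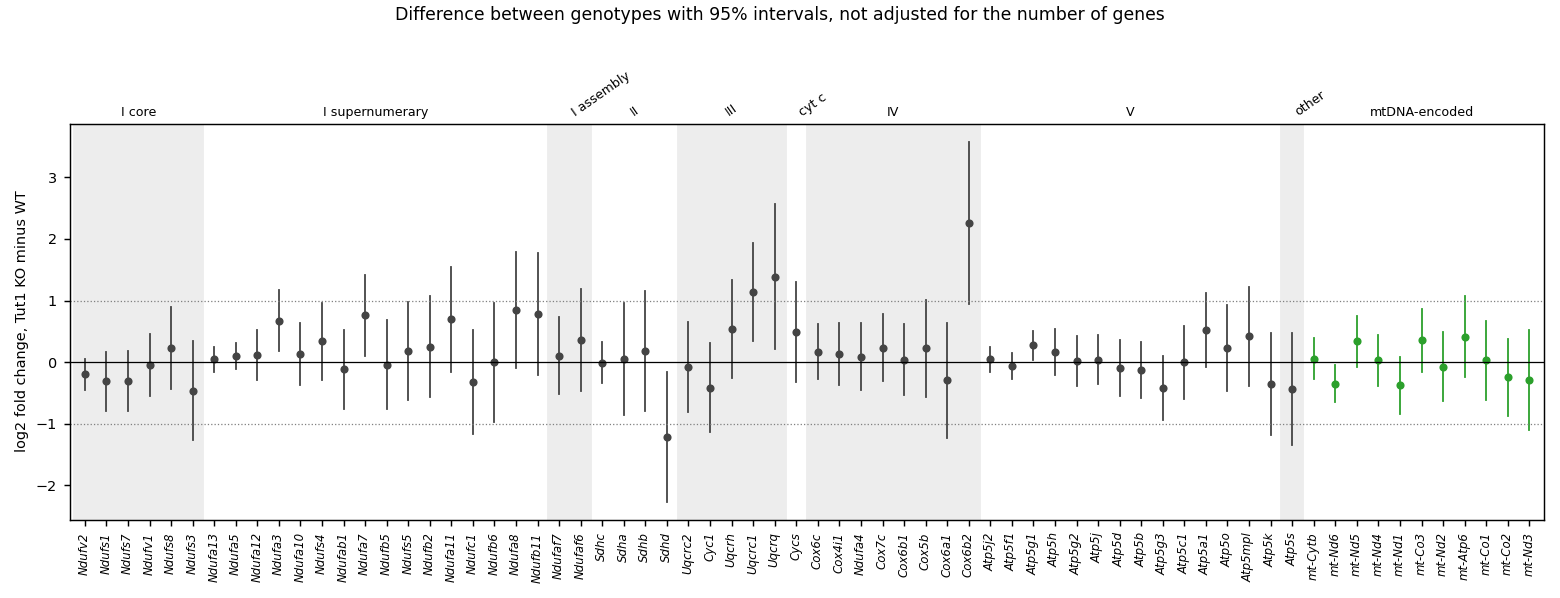
Log2 fold change of tested genes, Tut1 knockout minus WT, with 95% intervals that are not adjusted for the number of genes, ordered as in the plot of levels; mitochondrially encoded genes are green and dotted lines mark a 2-fold change. Intervals are narrow for the abundant genes, such as −0.16 to 0.25 for Atp5j2, and wide for rare ones, such as 0.94 to 3.58 for Cox6b2.

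Complex I takes electrons from NADH. Its 7 nuclear-encoded core subunits, which carry the flavin, the iron-sulphur clusters and part of the quinone site, had a median log2 fold change of −0.20, and 5 of the 7 values were below 0. Ndufv2, an iron-sulphur subunit of the NADH-binding module, had 514 and 537 counts in WT against 511 and 376 in KO-labelled libraries, or 1528 ± 40.3 CPM against 1332 ± 36.8 (SD, n = 2). Both KO-labelled libraries lay below both WT libraries in CPM, with a log2 fold change of −0.20 ± 0.12 (adjusted p = 0.512).

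The 29 supernumerary subunits, which surround the core and are needed for its assembly and stability, included 16 tested genes with a median log2 fold change of 0.16, and 12 of the 16 values were above 0. Ndufa3, a subunit of the membrane arm, had 37 and 46 counts in WT against 74 and 54 in KO-labelled libraries. In CPM these groups did not overlap (120 ± 11.6 against 192 ± 6.44), and the log2 fold change was 0.67 ± 0.25 with an adjusted p of 0.160. Ndufa7 had 19 and 21 counts against 31 and 34 (0.76 ± 0.32, adjusted p = 0.245). The most counted subunit, Ndufa13, also known as GRIM-19, had 1044 and 1166 counts against 1285 and 925, and its CPM values overlapped (0.05 ± 0.10, adjusted p = 0.899). Its interval ran from −0.16 to 0.25. Ndufa13 shares 8379 bases with Yjefn3 on the same strand, a gene that had 3 to 14 counts in a library.

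Low counts left 13 supernumerary genes untested. One of them, Ndufa1, had 4 and 1 counts in WT against 0 and 0 in KO-labelled libraries, which is at or near the limit of 3 counts that a count of 0 allows. Of the 8 assembly factors in the rule, which help to build complex I and do not stay in it, 2 were tested. Ndufaf6 had 11, 14, 18 and 13 counts (log2 fold change 0.36 ± 0.41, adjusted p = 0.783), and Ndufaf7, a methyltransferase, had 24, 30, 30 and 26 (0.11 ± 0.31, adjusted p = 0.919). Neither difference was larger than its standard error.

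Complex II links the chain to the tricarboxylic acid cycle, and all 4 of its subunits were tested, with a median log2 fold change of 0.02. Sdhd, one of the pair of membrane anchors, had 13 and 16 counts in WT against 10 and 2 in KO-labelled libraries. Both of the latter lay below WT in CPM (42.0 ± 3.76 against 16.8 ± 13.9), and the log2 fold change was −1.21 ± 0.52 with an adjusted p of 0.248. The other anchor, Sdhc, was counted far more often, at 177 and 172 against 199 and 138, and its value was −0.01 ± 0.16 (adjusted p = 0.994). The iron-sulphur subunit Sdhb had 12 and 8 counts against 15 and 7 (0.18 ± 0.48, adjusted p = 0.918). Only for Sdhd did the groups not overlap, and there 1 library, knockout replicate 2, was far below the other 3. Without it the log2 fold change was −0.66, and without knockout replicate 1 it was −2.54.

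Complex III passes electrons from the quinone to cytochrome c. Its 5 tested of 9 genes, of which Uqcrq entered through the KO-labelled libraries only, had a median of 0.54 on the log2 scale. Uqcrc1, a core protein that faces the matrix, had 11 and 10 counts in WT against 25 and 20 in KO-labelled libraries. In CPM this was 30.6 ± 3.81 against 68.0 ± 2.14 (SD, n = 2), a log2 fold change of 1.14 ± 0.39 with an adjusted p of 0.130. Uqcrq, a small subunit that binds near cytochrome b, had 3 and 6 counts against 11 and 12 (1.39 ± 0.58, adjusted p = 0.239). The groups of both genes did not overlap. The second core protein, Uqcrc2, did not go with them, with 17 and 26 counts against 18 and 21 (−0.08 ± 0.36, adjusted p = 0.955), and Cyc1, which carries the haem of cytochrome c1, had 20 and 27 against 21 and 13 (−0.42 ± 0.36), with both KO-labelled libraries below both WT libraries in CPM. Cytochrome c itself, encoded by Cycs, had 13 and 12 counts against 19 and 15 (0.49 ± 0.40, adjusted p = 0.649).

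Complex IV held the gene closest to the threshold. Cox6b2 encodes the form of subunit 6B that is best known from testis, and it had 3 and 2 counts in WT against 13 and 11 in KO-labelled libraries. In CPM this was 7.34 ± 2.48 against 36.4 ± 2.59, and the log2 fold change of 2.26 ± 0.65 had an adjusted p of 0.0563. The 95% interval, 1.92-fold to 11.9-fold higher, takes no account of how the gene entered the test. Its adjusted p fell below 0.05 in 3 of the other settings, at 0.0492 with total counts only, at 0.0415 with no filter on low counts and at 0.0434 with the bias-adjusted form of the test. It was 0.233 with limma-voom, 0.121 with a replicate block and 0.194 to 0.435 when a library was left out, over which the log2 fold change ran from 1.94 to 2.61. Without WT replicate 1, the library with no counts of Eif2s3y, that value was 2.61 (adjusted p = 0.194). DESeq2 gave 2.32 with no adjusted p, since its own filter removed the gene. Cox6b2 entered the test through the KO-labelled libraries only. The broadly expressed form of this subunit, Cox6b1, had 29 and 42 counts against 35 and 35 (0.04 ± 0.28), and the 2 genes were not tested against each other. Over all 8 tested of 16 genes of complex IV the median was 0.15, with 7 of the 8 values above 0. Cox6c had 93 and 68 counts against 86 and 88 (0.17 ± 0.22, adjusted p = 0.815), and Cox7c had 34 and 39 against 47 and 36 (0.24 ± 0.27, adjusted p = 0.783).

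Complex V makes the ATP. Its 14 tested of 16 nuclear genes gave a median of 0.03 on the log2 scale, with 8 values above 0 and 6 below. Atp5g1, another gene for subunit c, had 561 and 583 counts in WT against 719 and 610 in KO-labelled libraries. Its CPM was 1664 ± 50.1 against 2015 ± 147, a difference without overlap of 0.27 ± 0.12 on the log2 scale (adjusted p = 0.244). The interval of 0.04 to 0.51 allowed at most a 1.42-fold higher level. The other genes for subunit c gave 0.02 ± 0.20 (Atp5g2) and −0.42 ± 0.25 (Atp5g3), and both of these had fewer counts. Atp5a1, the alpha subunit of the catalytic head, had 25 and 24 counts against 38 and 30 (0.52 ± 0.30, adjusted p = 0.461). Of all these genes the most counted in its own row was Atp5j2, which encodes subunit f of the membrane part. Atp5j2 had 1165 and 1133 against 1287 and 1003 (0.04 ± 0.10, adjusted p = 0.903), and its groups overlapped. Atp5s, which the rule takes in by name but which is not a structural subunit, had 20 and 11 counts against 8 and 14 (−0.43 ± 0.45, adjusted p = 0.751).

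The mitochondrially encoded genes include 7 subunits of complex I, 1 of complex III, 3 of complex IV and 2 of complex V, and none of the 11 tested passed the adjusted threshold in edgeR, DESeq2 or limma-voom. Values for complex I genes were mixed. The lowest p belonged to mt-Nd6, which had 248 and 307 counts in WT against 235 and 185 in KO-labelled libraries. In CPM both of the latter lay below WT (804 ± 75.2 against 634 ± 12.8), and the log2 fold change was −0.35 ± 0.15 (adjusted p = 0.256). Its neighbour on the opposite strand, mt-Nd5, had 77 and 91 counts against 100 and 103 (0.34 ± 0.20, adjusted p = 0.488), and there both KO-labelled libraries lay above WT. All 7 mitochondrially encoded subunits of complex I belong to its membrane arm. For mt-Nd1 there were 74 and 77 counts against 71 and 42 (−0.38 ± 0.23, adjusted p = 0.501), and both KO-labelled libraries were lower in CPM. For mt-Nd2 there were 31 and 56 against 49 and 31 (−0.07 ± 0.28), and for mt-Nd4 there were 74 and 99 against 105 and 66 (0.03 ± 0.21), so that both of these overlapped. The small subunit mt-Nd3 had 18 and 15 counts against 13 and 13 (−0.29 ± 0.40), and mt-Nd4l, with 10 and 9 against 6 and 4, was not tested.

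The mitochondrially encoded gene most counted in its own row, mt-Cytb, encodes the cytochrome b of complex III. It had 201 and 299 counts in WT against 321 and 186 in KO-labelled libraries, so the groups overlapped widely (0.06 ± 0.16, adjusted p = 0.918). Of the complex IV genes, mt-Co1 gave 0.03 ± 0.32, mt-Co2 gave −0.25 ± 0.31 and mt-Co3 gave 0.36 ± 0.25. These 3 belong to the genes with nuclear copies, as does mt-Atp6 with 0.42 ± 0.32 (adjusted p = 0.627). With the counts of each copy added to its gene, a setting chosen after the data were seen, mt-Atp6 gave −0.23 with an adjusted p of 0.270, so its direction depended on which row held the reads. Gm10925 by itself gave −0.24 (adjusted p = 0.241). The second ATP synthase gene, mt-Atp8, had 3 and 1 counts against 7 and 3 and was not tested.

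Nuclear-encoded and mitochondrially encoded genes were compared as shares of each library. The 91 nuclear genes held 2.08% and 1.92% of counts in WT against 2.15% and 2.15% in KO-labelled libraries, a difference of 0.148 percentage points in which the groups did not overlap. On the TMM-scaled CPM used for single genes they did overlap, with summed levels of 22742 and 21102 CPM in WT against 22711 and 22805 CPM, so the separation depended on the scaling. For the shares of counts the exact permutation test gave p = 0.333 (two-sided), the smallest p that 2 against 2 libraries allow. The 13 mitochondrially encoded genes held 0.233% and 0.283% in WT against 0.265% and 0.253% in KO-labelled libraries, so the latter lay between the WT values (exact permutation p = 1). There were thus 8.94 and 6.81 nuclear counts per mitochondrially encoded count in WT against 8.13 and 8.51 in KO-labelled libraries, and the groups overlapped here too. With the 6 nuclear copies added, mitochondrial shares were 0.741% and 0.893% against 0.770% and 0.8003%, again with the KO-labelled libraries between the WT libraries. The ratio of nuclear to mitochondrial counts was then lower, at 2.81 and 2.15 in WT against 2.80 and 2.68 in KO-labelled libraries. The mitochondrial ribosomal RNAs, which are not mRNAs, had 1235 and 2022 counts against 2109 and 1827.

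**Figure D4:**
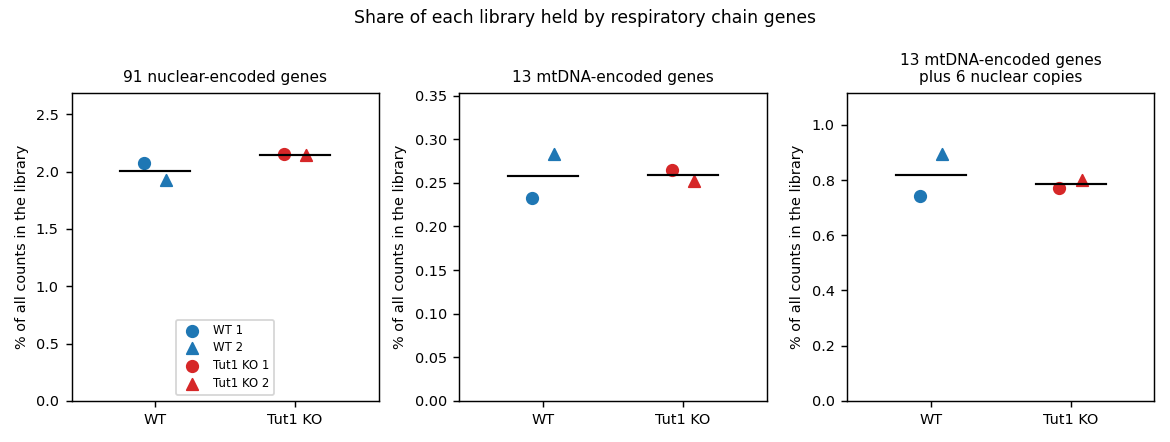
Share of all counts in each library, in percent, held by the 91 nuclear-encoded genes, by the 13 mitochondrially encoded genes, and by the latter with their 6 nuclear copies; circles are replicate 1, triangles replicate 2 and lines the mean of 2 libraries, and each vertical axis begins at 0. The nuclear share was 2.00% on average in WT and 2.15% in Tut1 knockout, and in the other panels both KO-labelled libraries lie between the WT libraries.

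Other mitochondrial genes were read from lists that the rule does not include. Of 40 assembly factors outside it, 19 were tested and 0 passed, with a median log2 fold change of 0.02. Of 19 genes that replicate, transcribe or regulate mitochondrial and respiratory genes, 8 were tested and 0 passed, with a median of 0.08, and Slirp, which stabilises mitochondrial mRNAs, had 769 and 791 counts against 892 and 728. Tfam, the packaging and transcription factor of mitochondrial DNA, had 5, 8, 9 and 5 counts and was too low to test. Of 16 enzymes of the tricarboxylic acid cycle and pyruvate dehydrogenase, 11 were tested and 0 passed (median 0.22), and of 6 carriers and porins all 6 were tested and 0 passed (median −0.02). At an unadjusted p below 0.05 these 4 lists held 0 genes higher and 3 lower (7.88% and 6.31% of all tested genes), namely Cox15, Sdhaf2 and Gabpb1 with adjusted p of 0.179, 0.217 and 0.211.

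The mitochondrial ribosome, which translates the 13 mitochondrial mRNAs, had 78 protein genes in the table. Of these 44 were tested, 2 rose and 1 fell (1.4% and 0.663% of all tested genes), with a median of −0.09 on the log2 scale. Mrps18b had 10 and 14 counts in WT against 31 and 30 (log2 fold change 1.40 ± 0.36, adjusted p = 0.0292), and Mrpl52 had 73 and 70 against 118 and 115 (0.77 ± 0.20, adjusted p = 0.0316). Mrps24 fell from 293 and 280 to 225 and 148 (−0.58 ± 0.15, adjusted p = 0.0316). Cytosolic ribosomal protein genes, given for scale because they are short and abundant as well, had 1 rise (Rpl17) and 1 fall (Rps20) among 88 tested of 97. Their median was −0.12, and 20 of the 88 values were above 0 (48.4% of all tested genes). Both KO-labelled libraries lay below both WT libraries for 39 of the 88 (20.8% of all tested genes) and above them for 7 (22.1%). Transcripts of the nuclear respiratory chain genes were short too, with a median length of 627 bases against 1157 over all tested genes. Once the dependence on length had been taken out of every library, the median of the 58 nuclear genes was 0.10, against −0.04 over all tested genes.

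Promoters were searched for 3 short motifs of factors known to control respiratory genes, on both strands, in the window from 250 bases before to 50 after the start of each gene in the RefSeq table (GRCm38.p6), in which 73 of the 91 nuclear genes were found. The motif GCGCATGCG of NRF1 was present for 11 of 73 (15.07%), against 1.95% of 27025 genes in that table and 4.13% of the 9979 protein-coding genes of the count table that were found in it. The motif AAGATGGCG of YY1 was present for 8 (10.96%, against 1.64% and 3.52%), and CCGGAAGT, bound by ETS factors such as GABP, for 5 (6.85%, against 4.31% and 9.13%). None of these motifs contains another, though the NRF1 motif can overlap itself on the other strand, and a match describes letters only. The promoter of Uqcrc1, the gene with the lowest p in complex III, is shown because it held the NRF1 motif on both strands in overlapping positions close to the start (chr9:108936398-108936697, plus strand, capitals mark the motif).
Uqcrc1: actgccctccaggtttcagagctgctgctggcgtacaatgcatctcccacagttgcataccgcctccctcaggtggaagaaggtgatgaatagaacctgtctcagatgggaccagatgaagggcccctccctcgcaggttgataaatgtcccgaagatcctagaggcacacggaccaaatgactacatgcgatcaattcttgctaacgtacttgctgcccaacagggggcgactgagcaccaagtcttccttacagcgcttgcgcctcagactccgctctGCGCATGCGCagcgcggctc

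Genes with the NRF1 motif did not share a direction. Besides Uqcrc1 they comprised Atp5g2 (0.02), Atp5k (−0.36), Cox6a1 (−0.29), Cycs (0.49), Ndufa11 (0.69) and Ndufa8 (0.84) on the log2 scale, and 4 genes that were not tested. Nrf1, the gene of the factor, had 31 and 25 counts in WT against 20 and 22 in KO-labelled libraries (−0.36, adjusted p = 0.702), and Gabpb1, a subunit of GABP, had 77 and 82 against 57 and 46 (−0.57, adjusted p = 0.211).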

How the data were processed

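Poly(A)-enriched Nanopore reads of 4 libraries were aligned by the authors to the Ensembl mouse transcriptome with minimap2 and processed with FLAIR. The deposited file holds raw counts per gene, with no normalization. The sources do not say how isoforms were summed, whether strand mattered, or where reads that fit more than 1 gene went. For the comparison, edgeR 4.0.16 (R 4.3.3) was used with its filterByExpr filter (minimum count 10, minimum total 15), TMM scaling over the 5878 tested genes (92.1% to 93.5% of each total), glmQLFit and glmQLFTest, two-sided and without covariates. Benjamini-Hochberg adjustment took in every tested gene (threshold 0.05). CPM were computed on TMM-scaled counts of tested genes. Standard errors follow from the log2 fold change and the F statistic. Symbols and coordinates (1-based) are from GENCODE M21, which matched 16429 identifiers. Look-alikes were found with blastn 2.17.0. The procedure was tested on simulated data.

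The genes and lists were chosen with earlier results of these data known. Named were all mitochondrially encoded genes and, in each complex, the 2 genes with the smallest p and the one with most counts. Other genes were named after their values were seen. Other settings were total counts, median-of-ratios size factors, library sizes without mitochondrial rows, no filter, DESeq2 1.42.0, limma-voom (limma 3.58.1), the bias-adjusted test, a replicate block, leaving out each library, removal of the length trend (loess, span 0.5), thinning, and look-alike rows summed with their gene. Intervals cover counting and library spread as modelled. Values of 1 respiratory chain gene and 1 marker gene are counted in the totals but not reported or plotted here.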

Additional observations from a re-analysis of the deposited data

How the results depend on the processing

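No respiratory chain gene passed in 13 of 16 settings, the reported one included (thinning left Cox6b2 and Uqcrq untested), whereas Cox6b2 made the count 1 with total counts only, with no filter on low counts and with the bias-adjusted test. The number of all genes called, 121, became 12 with DESeq2, 76 with the replicate block and 3 to 108 when a library was left out (75 without WT replicate 1, 3 without knockout replicate 1 and 35 without knockout replicate 2). Of the genes called, 67.8% were higher in the libraries labelled knockout, and 81.4% with total counts only. No pairing of libraries by replicate number was seen (correlation of deviations −0.06), though counting noise at this depth could hide one. The replicate block called 0 respiratory chain genes, the smallest adjusted p being 0.121.

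The median of the nuclear genes stayed between 0.05 and 0.17, while that over all tested genes ran from −0.04 to 0.05. With total counts only, the nuclear median of 0.17 stood beside 0.05 over all tested genes. With no filter it was 0.06 beside 0.05. The median of the mitochondrially encoded genes ran from −0.16 to 0.30 when a library was left out, the highest without WT replicate 2, and its direction was therefore not settled. Of 478 values for named genes, 453 kept direction and side of the threshold, 22 reversed and 3, all of Cox6b2, passed. Sdhc became 0.0554 with total counts only, and mt-Atp6 became −0.23 with look-alike rows summed. When a library was left out, values ran from −0.29 to 0.44 (mt-Co1), −0.16 to 0.30 (mt-Cytb), −0.13 to 0.18 (mt-Nd4), −0.10 to 0.0645 (Sdhc), −1.07 to 0.11 (Atp5s), −0.39 to 0.34 (mt-Nd2), −0.26 to 0.55 (Sdhb), −0.38 to 0.22 (Uqcrc2), −0.10 to 0.47 (Cox6c), −0.0427 to 0.12 (Atp5j2) and −0.12 to 0.88 (mt-Atp6). Counts under about 20 per library limit what could be found for most genes. The causes were not tested.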
